A study of Mus musculus with 11 samples.

Results

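Small nucleolar RNAs (snoRNAs) are short nuclear RNAs, and this account covers the genes of this kind that an expression array measured in 4 GFP reporter lines of the mouse dentate gyrus. A member was any gene whose probe set carried a single annotated symbol beginning with Snora or Snord and a digit, and 5 genes with more than 1 probe set were represented by the brightest one on average. This gave 51 snoRNA genes, from 56 probe sets, out of 19938 genes with a single symbol. Of the 51, 31 were C/D box genes (Snord symbols) and 20 were H/ACA box genes (Snora symbols). A low-value filter, which asked for a value above the array's own 25th percentile on at least 2 of the 11 arrays, passed 47 of them (29 C/D and 18 H/ACA) among 16527 genes.

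GFP-positive cells were sorted from dorsal and ventral dentate gyrus of mice at postnatal day 35, and their amplified RNA was hybridised to whole-transcript Affymetrix arrays (Mouse Gene 1.0 ST). The NesGFP line (3 arrays) carries a Nestin GFP transgene, which marks stem and progenitor cells but can also mark vascular cells. The kiTbr2GFP line (3 arrays) has GFP knocked into Eomes, the gene of the intermediate progenitor factor Tbr2, so the reporter also alters that locus, and the tgTbr2GFP line (3 arrays) carries an Eomes GFP transgene on a bacterial artificial chromosome. The PomcGFP line (2 arrays) carries a Pomc GFP transgene, which marks young granule neurons. Every group was sorted from slices of 750 µm and held about 3000 to 5000 cells, and no wild-type or GFP-negative group was analysed here. Nothing in the labels states that the arrays of a line are separate animals, so p-values here measure array-to-array spread, part of which may be technical.

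C/D box snoRNAs guide 2'-O-methylation of ribosomal RNA, and H/ACA box snoRNAs guide its pseudouridylation. A few, among them Snord22 (U22), the Snord14 genes (U14), Snord118 (U8) and Snora73a and Snora73b (U17), act in the cleavage of the ribosomal RNA precursor. Most vertebrate snoRNAs are cut out of introns of a host gene, often one that encodes a ribosomal protein or a translation factor, or a long non-coding RNA whose spliced product has no evident protein. By the RefSeq gene annotation, 50 of the 51 genes lay inside another gene, and Snord118 lay in none. The 40 hosts were 30 protein-coding genes and 10 long non-coding RNA genes. Where a snoRNA gene lies in an intron, its probes also match the host's unspliced transcript, and the processed snoRNA and that precursor cannot be told apart on the array.

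Hosts of this kind often have a promoter in which transcription starts at a run of pyrimidines (a TOP start). To show what such a start looks like, the stretch from 50 bases before to 50 bases from an annotated start (RefSeq, GRCm38.p6) follows for 5 long non-coding hosts of snoRNA genes described here. Snhg1 holds Snord22, Snhg12 holds Snora44 and Snora16a, 2410006H16Rik holds Snord49a and Snord49b, Gm36220 holds Snord104, and Gas5 holds Snord47. Gas5 has a pair of annotated starts, both shown, and the first holds none of the letter runs. Capitals mark a match to CTCTT, to the run CTTTC, to the run TTTCC or to the run TTTCT, letter runs that overlap each other, between 10 bases before and 25 bases after the start.
Snhg1 (chr19:8723437-8723536, + strand): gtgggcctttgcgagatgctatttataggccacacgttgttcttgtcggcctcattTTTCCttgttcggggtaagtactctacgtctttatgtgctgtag
Snhg12 (chr4:132308628-132308727, + strand): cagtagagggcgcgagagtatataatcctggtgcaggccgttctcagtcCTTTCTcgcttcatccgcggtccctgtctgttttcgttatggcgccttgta
2410006H16Rik (chr11:62602827-62602926, + strand): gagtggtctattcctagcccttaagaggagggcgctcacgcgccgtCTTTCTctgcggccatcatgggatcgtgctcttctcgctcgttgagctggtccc
Gm36220 (chr11:106500865-106500964, + strand): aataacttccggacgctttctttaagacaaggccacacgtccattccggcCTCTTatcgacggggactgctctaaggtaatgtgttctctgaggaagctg
Gas5, first start (chr1:161034551-161034650, + strand): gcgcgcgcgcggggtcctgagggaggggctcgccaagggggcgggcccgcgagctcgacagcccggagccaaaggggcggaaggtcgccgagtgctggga
Gas5, second start (chr1:161035116-161035215, + strand): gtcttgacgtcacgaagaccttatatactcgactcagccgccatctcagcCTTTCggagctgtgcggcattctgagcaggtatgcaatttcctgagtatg
At least 1 of these runs lay on the gene's own strand in 17 of 32 host windows (53.1%), in 7 of 9 long non-coding host windows (77.8%) and in 14.1% of all 32851 windows in the table. On either strand the share was 27.1% of all windows and 56.2% of host windows. The E-box CACGTG, a site of MYC family factors and palindromic, so alike on both strands, lay in 6 of 32 host windows (18.8%) and in 7.15% of all windows of 300 bases. The letter runs were chosen after these windows had been seen, and a match is a description of the letters only.

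Values are RMA log2 intensities, and a difference subtracts the log2 mean of the group named second from that of the group named first. The 25th percentiles of the arrays lay between 5.90 and 6.20. Eomes lay between 9.83 and 10.39 on the arrays of both Tbr2 lines, 8.52 and 9.23 in NesGFP and 7.35 and 7.68 in PomcGFP, and Nes was highest in NesGFP (6.91 to 7.63). Pomc lay between 6.48 and 7.27 on all arrays (7.22 to 7.27 in PomcGFP), so its own transcript separated the lines little. The NesGFP arrays stood apart in markers of several other cell types, though not of microglia. The summed level of 5 endothelial markers was 12.37 to 12.62 in NesGFP, 8.69 to 9.48 in the Tbr2 lines and 9.27 to 9.60 in PomcGFP, and all 5 were lower in the Tbr2 lines than in NesGFP, with 2 of them below the 25th percentile on every kiTbr2GFP array. Also lower in the Tbr2 lines were 4 of 4 mural markers (summed level 12.74 to 13.07 in NesGFP, 8.79 to 9.29 in the Tbr2 lines and 9.16 to 9.76 in PomcGFP), 4 of 4 measured oligodendrocyte markers (12.84 to 13.12, 9.42 to 11.11 and 11.03 to 11.04), 3 of 3 precursor markers of that lineage and 5 of 5 astrocyte and stem cell markers (13.37 to 13.57, 11.32 to 12.01 and 11.49 to 11.56). The 2 dividing-cell markers went the other way, 7.83 to 8.57 in NesGFP against 9.53 to 11.06 in the Tbr2 lines, and both passed as higher there. Of 4 granule neuron lineage markers 3 were higher and 1 lower in the Tbr2 lines (10.93 to 11.02, 12.44 to 12.76 and 12.67 to 12.71). Of 6 microglia markers 1 was lower in the Tbr2 lines, and the summed levels overlapped (9.62 to 9.86 in NesGFP, 9.42 to 10.05 in the Tbr2 lines). The part of these markers in the snoRNA differences against NesGFP was not tested. In such sorted pools fewer cells of a type and less RNA per cell cannot be told apart.

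The snoRNA genes varied more between arrays of a line than most genes did. The median residual standard deviation was 0.51 for the 47 snoRNA genes (0.16 to 1.58) and 0.18 for all genes tested. Their mean level was not far off, with a median of 7.28 against 7.51. Of the 51 genes, 26 lay above the 25th percentile on all 11 arrays. Those below it on every array of a line numbered 7 in kiTbr2GFP, 7 in tgTbr2GFP, 5 in NesGFP and 9 in PomcGFP. The condition is easier to meet on the 2 PomcGFP arrays than on the 3 of another line. No share of all genes is given beside these counts. The highest means belonged to Snord104 (11.46), Snord14e (10.23) and Snora3 (10.05) and the lowest to Snord58b (3.97), Snora2b (4.92) and Snord37 (4.95), but probes of different genes bind with different strength and these levels give no order of abundance.

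Across the 4 lines 20 of 47 snoRNA genes passed limma's moderated F test at a Benjamini-Hochberg adjusted p under 0.05. That is 42.6%, near the 43.4% of all genes. Without the low-value filter 21 of 51 passed, with 36.3% of all genes, and the added gene was Snora2b (adjusted p = 0.0293 in limma). By class, 14 of 29 C/D and 6 of 18 H/ACA genes passed. The heat map of deviations shows genes that were high in NesGFP beside genes that were low there.

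**Figure D1:**
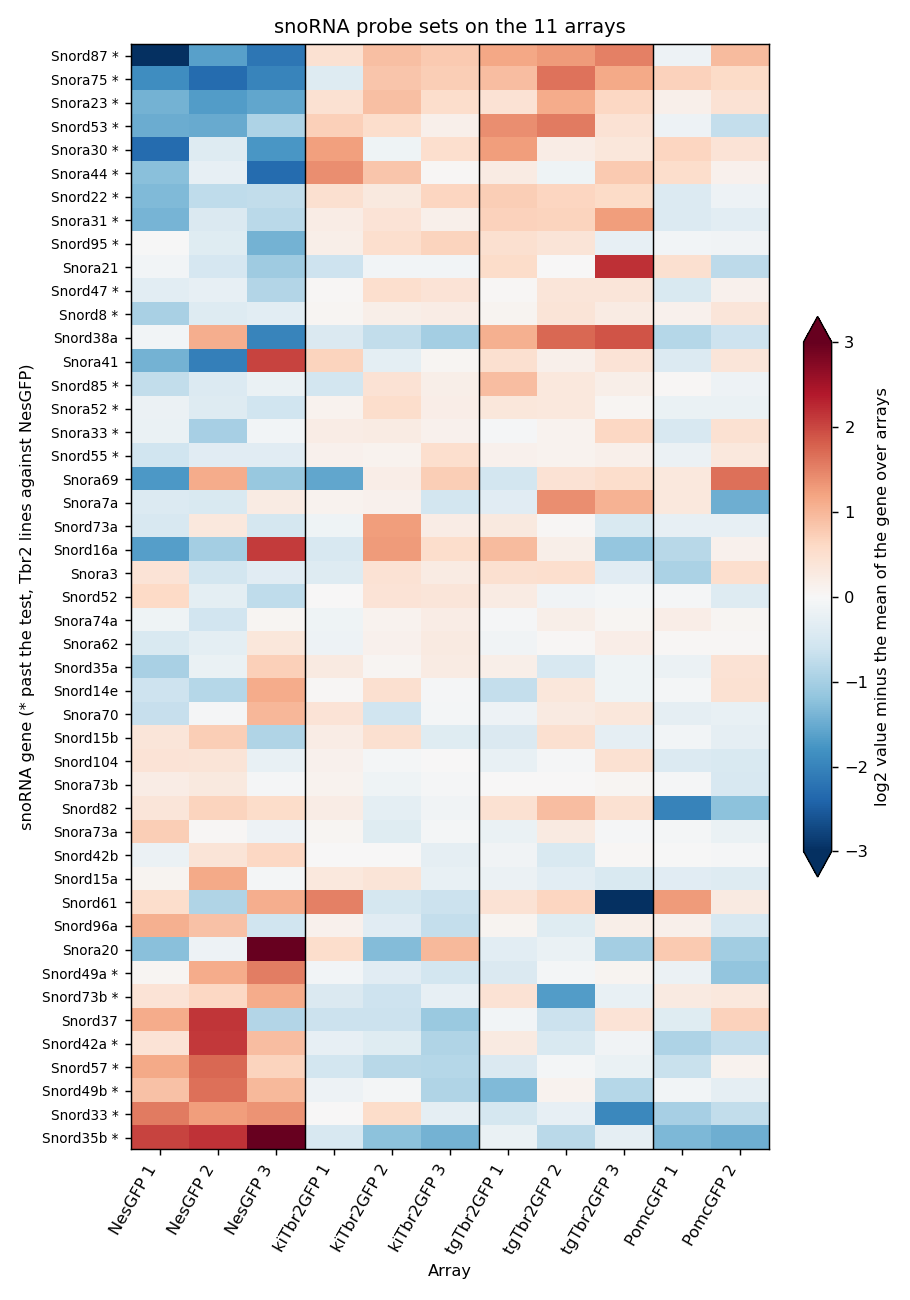
Each row is a snoRNA gene that passed the low-value filter and each column an array, and colour gives the log2 value minus the gene's mean over all arrays. Red and blue blocks in the NesGFP columns mark genes such as Snord35b and Snord87, whose NesGFP arrays lay above or below all others.

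Both Tbr2 lines, taken as the mean of kiTbr2GFP and tgTbr2GFP, were compared with NesGFP, which sets cells with an active Eomes reporter against Nestin reporter cells. Of 47 snoRNA genes 22 passed the test (46.8%), 15 higher and 7 lower, against 48.9% of all genes (19.8% higher and 29.1% lower). The median difference was 0.29 for the snoRNA genes and -0.02 for all genes. By size, 16 of 47 differed by over 2-fold in either direction (34%), against 16.5% of all genes. Between the Tbr2 lines, where no snoRNA gene passed, that share was also above that of all genes (6.38% against 0.95%). The part of the wider array-to-array spread of these genes in such shares was not tested. Arrays of NesGFP and of the Tbr2 lines did not overlap for 18 of the genes, all of them among the 22, and for 41.7% of all genes. Without the low-value filter the count was again 22 of 51, with 41.5% of all genes, but Snora33 was lost (adjusted p = 0.0547 in limma) and Snora2b added (0.00675). Each Tbr2 line set alone against NesGFP gave 22 of 47, with 45.2% of all genes for kiTbr2GFP and 41.6% for tgTbr2GFP; the kiTbr2GFP count includes Snord37, which was above the filter only in NesGFP.

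The 6 largest increases came from both box classes and from different hosts. Snord87, a C/D box gene inside the non-coding gene Snhg6, read 4.21, 5.65 and 5.12 on the NesGFP arrays, 7.73, 8.18 and 8.08 in kiTbr2GFP and 8.44, 8.56 and 8.79 in tgTbr2GFP. The difference was 3.30 ± 0.29 (SE; adjusted p = 3.41e-06) in limma. Snora75, an H/ACA gene inside the nucleolin gene (Ncl), read 5.65, 5.19 and 5.54 in NesGFP, 7.13, 8.35 and 8.24 in kiTbr2GFP and 8.43, 9.13 and 8.65 in tgTbr2GFP. Its difference was 2.86 ± 0.25 (SE; adjusted p = 3.03e-06). Neither gene had any overlap between NesGFP and the Tbr2 lines. The NesGFP values of Snord87, Snora75 and Snord53 all lay below the 25th percentile of their arrays, so the size of these differences is imprecise. These genes passed the filter only through the lines in which they were high. Without the filter their adjusted p-values in limma were 4.03e-06, 3.58e-06 and 4.18e-05, in that order.

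Snora23, the H/ACA gene inside the importin gene Ipo7, read 7.63, 7.37 and 7.48 in NesGFP, 9.49, 9.95 and 9.58 in kiTbr2GFP and 9.47, 10.15 and 9.67 in tgTbr2GFP. The difference of 2.22 ± 0.16 (SE; adjusted p = 6.13e-07) had the smallest adjusted p among snoRNA genes in limma. Its lowest Tbr2 array was above its highest NesGFP array. Snord53, in the processome gene Wdr43, rose by 2.10 ± 0.25 (SE; adjusted p = 3.54e-05) from 5.38, 5.36 and 5.95 in NesGFP to 7.59, 7.39 and 7.01 in kiTbr2GFP and 8.25, 8.43 and 7.29 in tgTbr2GFP. Snora30, in the chromatin remodeller gene Srcap, rose by 2.05 ± 0.40 (SE; adjusted p = 0.00133), with NesGFP at 5.82, 7.74 and 6.39. Its 2 probe sets read the same on all 11 arrays, so the signal cannot be assigned to the site in Srcap alone. Snora44, in Snhg12, rose by 1.80 ± 0.41 (SE; adjusted p = 0.00329), with NesGFP at 7.69, 8.70 and 6.63. For Snora30 and Snora44 the NesGFP arrays were spread over more than a log2 unit, but none of the 3 reached the lowest Tbr2 array.

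The remaining genes that rose differed less. Snord22 (U22), needed for 18S ribosomal RNA maturation and housed in Snhg1, read 7.91, 8.46 and 8.48 in NesGFP, 9.70, 9.52 and 9.86 in kiTbr2GFP and 9.96, 9.88 and 9.79 in tgTbr2GFP, a difference of 1.50 ± 0.14 (SE; adjusted p = 4.88e-06). Snora31, in the translationally controlled tumour protein gene Tpt1, rose by 1.44 ± 0.19 (SE; adjusted p = 8.56e-05). The other 7 that rose were Snord95, Snord47, Snord8, Snord85, Snora52, Snora33 and Snord55, with differences from 0.61 (Snord55) to 0.93 (Snord95). Snord95 lies in Rack1, Snord47 in Gas5, Snord8 in Gm26590, Snora52 in Rplp2 and Snora33 in Rps12, so ribosomal protein genes and non-coding genes were both among the hosts.

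All 7 genes that fell were C/D box genes. Snord35b read 9.84, 9.99 and 10.87 in NesGFP, 7.34, 6.61 and 6.41 in kiTbr2GFP and 7.63, 7.01 and 7.55 in tgTbr2GFP, and fell by 3.14 ± 0.26 (SE; adjusted p = 1.72e-06) on the log2 scale in limma. Snord33, in Rpl13a, read 8.71, 8.41 and 8.50 in NesGFP against 7.17, 7.70 and 6.89 in kiTbr2GFP and 6.62, 6.91 and 5.21 in tgTbr2GFP, a difference of -1.79 ± 0.31 (SE; adjusted p = 0.000585). For both genes every NesGFP array lay above every Tbr2 array. Snord33 belongs to the Rpl13a snoRNAs that are known for a role in lipotoxic stress.

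Snord49b and Snord49a both lie in the non-coding gene 2410006H16Rik, and both fell. Snord49b read 10.66, 11.42 and 10.75 in NesGFP and differed by -1.70 ± 0.30 (SE; adjusted p = 0.000546). Snord49a differed by -1.13 ± 0.30 (SE; adjusted p = 0.0091). Snord57, in the core C/D protein gene Nop56, differed by -1.67 ± 0.22 (SE; adjusted p = 7.16e-05), with NesGFP at 9.59, 10.18 and 9.14 and no Tbr2 array above 8.40. Snord42a, in Rpl23a, differed by -1.45 ± 0.31 (SE; adjusted p = 0.00245), and Snord73b, in Rps3a1, by -1.17 ± 0.35 (SE; adjusted p = 0.0161). For Snord49a and Snord73b the NesGFP range met that of a Tbr2 line, with values of 7.07, 8.13 and 8.54 and 6.94, 7.16 and 7.66 in NesGFP. Snord73b lost its call without the third NesGFP array (adjusted p = 0.0625 in limma).

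**Figure D2:**
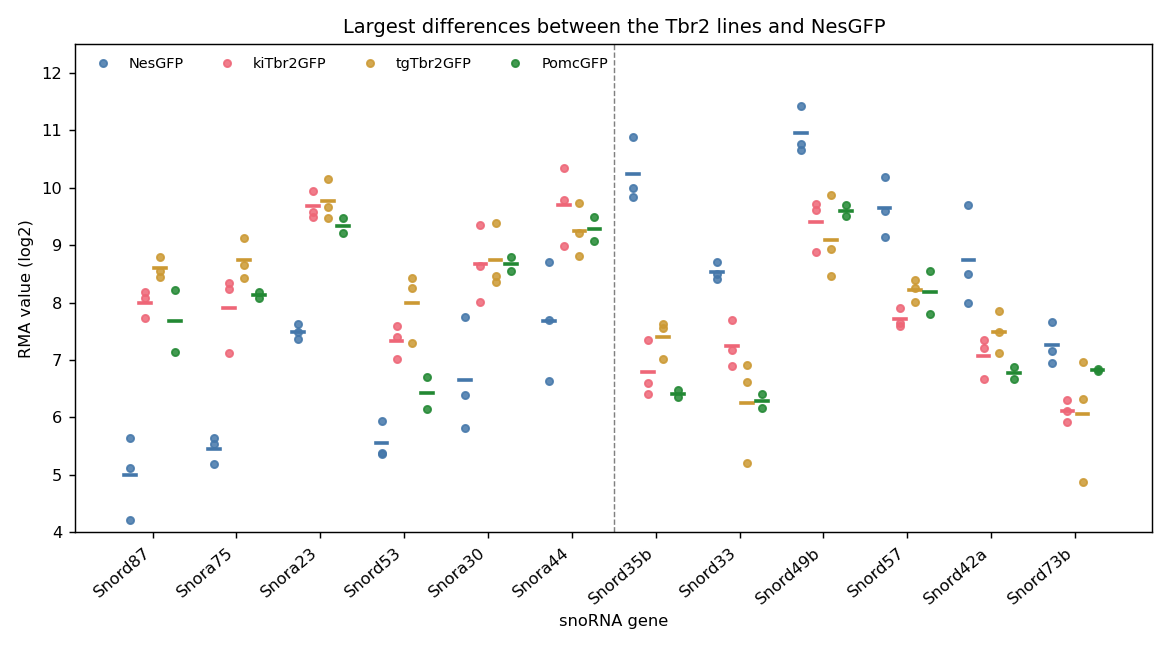
Points are single arrays and bars are means of a line, on the log2 RMA scale, for the 6 snoRNA genes with the largest increase (left of the dashed line) and the 6 with the largest decrease in the Tbr2 lines against NesGFP. For every gene shown but Snord73b the NesGFP arrays (blue) do not overlap with those of the Tbr2 lines; levels of different genes are not comparable.

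By box class, of 29 C/D genes 8 were higher and 7 lower, and of 18 H/ACA genes 7 were higher and 0 lower. That is 27.6% and 24.1% of the C/D genes and 38.9% and 0% of the H/ACA genes, beside 19.8% and 29.1% of all genes. By length in the RefSeq annotation, genes higher in the Tbr2 lines had a median length of 105 bases (65 to 184), those lower 63 bases (45 to 87) and those not past the test 91 bases (53 to 205). Whether length, class or another property goes with the direction was not tested. By type of host, 7 of 12 tested genes in non-coding hosts passed (58.3%; 5 higher, 2 lower), as did 15 of 35 in protein-coding hosts (42.9%; 10 higher, 5 lower), beside 48.9% of all genes.

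Among the 25 genes that did not pass, some had wide NesGFP ranges. Snord16a, in Rpl4, ran from 5.16 to 8.90 in NesGFP, and Snora41, in the elongation factor gene Eef1b2, from 4.38 to 8.46. Their standard errors were 0.75 and 0.69, so their differences of 0.40 and 0.72 were within the error. Others had narrow ranges. Snord104 read 11.24 to 11.87 in NesGFP and 11.41 to 11.59 and 11.23 to 11.91 in the Tbr2 lines, a difference of -0.15 ± 0.17 (SE; adjusted p = 0.487) in limma. The U17 genes Snora73a and Snora73b, both in Snhg3, differed by -0.26 ± 0.19 and -0.15 ± 0.12 (SE).

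PomcGFP was then compared with both Tbr2 lines, which sets the granule neuron reporter against the Tbr2 reporters. Here 4 of 47 snoRNA genes passed (8.51%), all lower in PomcGFP, against 3.73% of all genes, 1.73% lower. The median difference was -0.28 for snoRNA genes and 0.02 for all genes. At an unadjusted p under 0.05 there were 7, a count without the share of all genes beside it. Arrays did not overlap for 7 genes, 4 of which passed, against 16.7% of all genes. Without the filter 3 of 51 passed, with 3.02% of all genes, and the gene lost was Snora31 (adjusted p = 0.0508 in limma).

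Snord82, a C/D gene in nucleolin, was the largest of these. It read 7.26 and 8.04 in PomcGFP, 9.49, 8.98 and 9.17 in kiTbr2GFP, 9.71, 10.19 and 9.72 in tgTbr2GFP and 9.62, 9.93 and 9.82 in NesGFP. The difference from the Tbr2 lines was -1.90 ± 0.21 (SE; adjusted p = 0.000694) in limma. Both PomcGFP arrays lay below every other array. Its neighbour in the same host, Snora75, did not follow, with 8.19 and 8.09 in PomcGFP and a difference of -0.18 ± 0.29 (SE).

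Snord22 read 8.82 and 9.07 in PomcGFP, below every Tbr2 array, a difference of -0.84 ± 0.16 (SE; adjusted p = 0.0145). Snord53 read 6.71 and 6.14 and differed by -1.24 ± 0.29 (SE; adjusted p = 0.0391), and Snora31 read 9.62 and 9.72 and differed by -0.93 ± 0.22 (SE; adjusted p = 0.0447). All 3 also rose in the Tbr2 lines against NesGFP, and each PomcGFP array lay between the highest NesGFP and the lowest Tbr2 array for these genes. Both comparisons share the Tbr2 arrays, with opposite sign, so this pattern is not separate support. Of the 19 alternative analyses, Snord82 passed in all 19, Snord22 in 17 and Snord53 and Snora31 in 8 each. The count of 4 was 1 without either PomcGFP array and 2 without any 1 of the kiTbr2GFP arrays or the second tgTbr2GFP array. Markers that moved in this comparison included 2 of 2 dividing-cell genes, lower in PomcGFP with a summed level of 7.93 to 8.04 against 9.53 to 11.06, and 3 of 6 microglia genes, higher in PomcGFP (10.44 to 10.55 against 9.42 to 10.05). Their part was not tested.

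PomcGFP against NesGFP shares the NesGFP arrays with the first comparison, so the values are given side by side and not as separate support. Of 47 genes 17 passed (36.2%; 8 higher and 9 lower), against 39.9% of all genes (15.9% higher and 24% lower). The 8 that rose were Snord87 (2.69), Snora75 (2.68), Snora30 (2.02), Snora23 (1.84), Snora44 (1.60), Snord8 (0.80), Snord22 (0.66) and Snord55 (0.50). All 8 also rose in the Tbr2 lines. Those that fell were led by Snord35b, 6.48 and 6.35 in PomcGFP, with -3.82 ± 0.33 (SE; adjusted p = 6.55e-06). Then came Snord33 (-2.25), Snord82 (-2.14), Snord42a (-1.96), Snord49a (-1.58), Snord57 (-1.46), Snord49b (-1.34), Snord104 (-0.63) and Snora73b (-0.42). Snord82, Snord104 and Snora73b passed here and not in the first comparison; for Snord82 the difference between PomcGFP and the Tbr2 lines itself passed, and for Snord104 and Snora73b it did not. Among named genes Snora44 lost its call in 6 of 14 alternative analyses, Snord8 and Snord49a in 2 each and Snora30 in 1. The count moved with single arrays, to 9 without the second PomcGFP array and to 24 without the third NesGFP array.

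The 2 Tbr2 reporters were also set against each other. No snoRNA gene passed in limma (0 of 47, against 1.12% of all genes). Without adjustment 7 lay at a p under 0.05, with array weights 6 passed and with the compared groups alone 1 did. The last counts have no share of all genes beside them, so they are not a result about snoRNA genes in particular. Snord38a, a C/D gene, came nearest, with 5.92, 5.61 and 5.34 in kiTbr2GFP and 7.41, 8.07 and 8.24 in tgTbr2GFP. The difference was -2.28 ± 0.57 (SE; adjusted p = 0.102) and the arrays did not overlap. NesGFP spread over both ranges (6.28, 7.43 and 4.37), and PomcGFP read 5.49 and 5.73. Arrays did not overlap for 7 snoRNA genes in all, with 17.2% of all genes. Of the listed cell type markers, 2 of 2 dividing-cell genes passed as higher in kiTbr2GFP. So did 1 of 5 astrocyte and stem cell genes as lower there.

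Since most snoRNAs are made from their host's transcript, each was set beside its host. Of the 40 hosts 23 were measured with a single symbol, and only Gas5 among the non-coding ones. In the Tbr2 lines against NesGFP 8 of 23 hosts passed (34.8%, against 48.9% of all genes), 3 higher and 5 lower. In PomcGFP against the Tbr2 lines 0 of 23 did in limma (3.73% of all genes), and in PomcGFP against NesGFP 7 did (30.4%, against 39.9% of all genes), 2 higher and 5 lower. Hosts higher in the Tbr2 lines were Ipo7 (1.01; adjusted p = 0.000234), Ncl (0.78; adjusted p = 7.41e-05) and Wdr43 (0.42; adjusted p = 0.046), each holding a snoRNA gene that rose by more than its host. Wdr43, whose arrays overlapped, lost its call without the filter (adjusted p = 0.0513 in limma), which left 7 hosts, 2 of them higher. Hosts that fell were Eef2 (-0.72), Rpsa (-0.47), Nop56 (-0.46), Eef1b2 (-0.37) and Rps3 (-0.31).

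Over 26 pairs of a tested snoRNA gene and its tested host (22 hosts), Pearson's r between the differences of the Tbr2 lines against NesGFP was 0.60 and Spearman's rho 0.53. This is a description across genes that share arrays. In 4 pairs, Wdr43 with Snord53 among them, both passed in the same direction, in 7 only the snoRNA gene passed, in 6 only the host and in 9 neither. The snoRNA difference was the larger in size in 22 of 26 pairs, with a median size of 0.68 against 0.14 for hosts. Between the Tbr2 lines, where neither member of any pair passed, the snoRNA difference was larger in 20 of 26 (0.37 against 0.05). The snoRNA genes also varied more between arrays of a line (median residual standard deviation 0.51, against 0.18 for all genes). The part of that spread in these sizes was not tested. Snora30 and Snora31 rose in the Tbr2 lines against NesGFP while Srcap (0.14 ± 0.09, SE) and Tpt1 (0.14 ± 0.08) did not pass. The host of Snora30 is uncertain, since its probe sets read the same values. Snord42a fell while Rpl23a differed by 0.07 ± 0.08. For PomcGFP against the Tbr2 lines r was -0.20, with the host of Snord82, Ncl, at -0.11 ± 0.12 (SE). For PomcGFP against NesGFP r was 0.36. There both members passed in the same direction in 3 pairs and in opposite directions in 1. That 1 was Snord82 (-2.14) with Ncl (0.67; adjusted p = 0.00198 in limma).

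**Figure D3:**
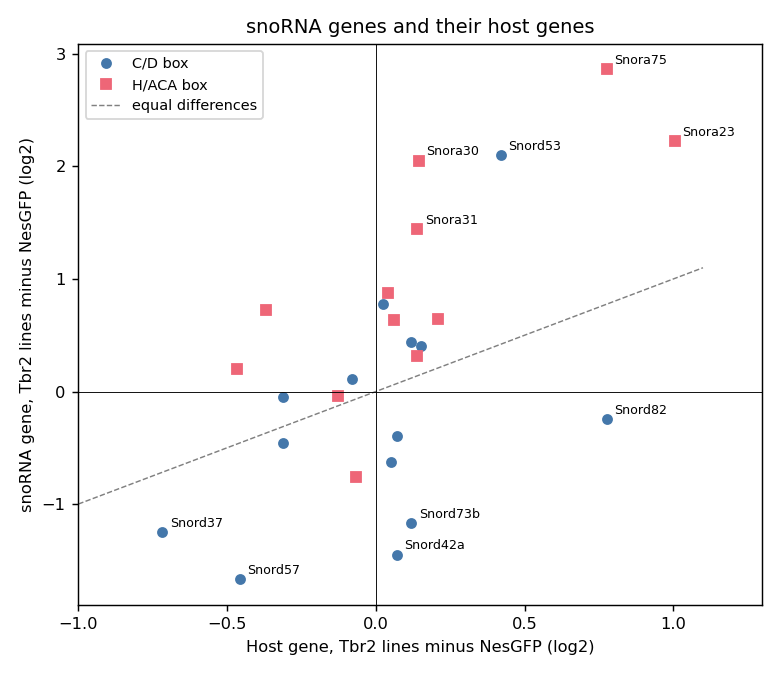
Each point is a snoRNA gene, placed by the log2 difference of its host gene (x axis) and its own log2 difference (y axis) between the Tbr2 lines and NesGFP, for 26 pairs. The snoRNA differences span a wider range than those of the hosts, and Snora75, Snora23 and Snord53 lie in the upper right.

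Of the hosts, 9 held 2 tested snoRNA genes each. In Ncl, Snora75 rose in the Tbr2 lines and Snord82 did not pass (-0.25 ± 0.19 (SE; adjusted p = 0.291) in limma). In Rpl13a, Snord33 fell and Snord35a differed by 0.17 ± 0.30 (SE). In Rack1, Snord95 rose by 0.93 while Snord96a differed by -0.62 ± 0.33 (SE). The pair in 2410006H16Rik fell together. Whether the members of a pair differ from each other was not tested. The lettered copies, such as Snord42a and Snord42b or Snora73a and Snora73b, can be near-identical, so probes may read more than 1 copy and their values are uncertain.

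**Figure D4:**
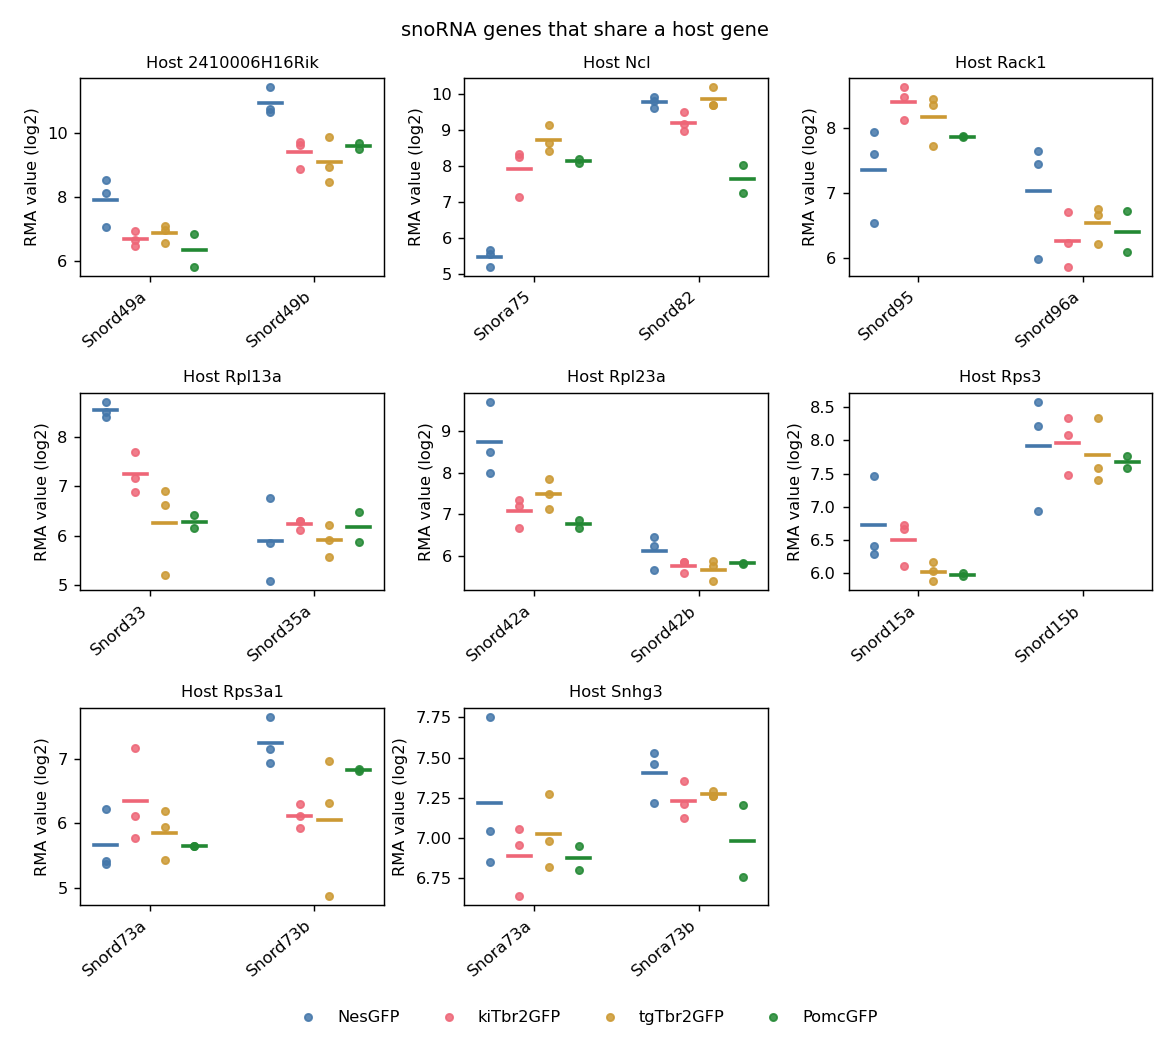
For 8 of the 9 hosts with 2 tested snoRNA genes, points give the log2 values of the snoRNA genes on single arrays, by line. In Ncl the PomcGFP arrays are low for Snord82 and not for Snora75; levels of different genes are not comparable.

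Transcripts of the proteins that bind snoRNAs moved in both directions. The shares of all genes to read these counts against are 48.9% past the test, 19.8% higher and 29.1% lower. Among the 4 core C/D proteins, Nop58 was higher in the Tbr2 lines than in NesGFP by 1.63 ± 0.18 (SE; adjusted p = 1.77e-05) in limma, Nop56 fell by 0.46 (adjusted p = 0.0146), and the methyltransferase Fbl differed by -0.23 (adjusted p = 0.157). Among the 4 core H/ACA proteins 0 were higher and 2 lower: Nhp2 fell by 1.12 and Nop10 by 0.52, while the pseudouridine synthase Dkc1 differed by 0.59 (adjusted p = 0.335). Of 13 assembly factors 1 rose, the cap methyltransferase Tgs1 (1.06), and 7 fell, among them Coil (-0.90), Pih1d1 (-0.88) and Znhit3 (-0.79). Of 20 nucleolar and ribosomal RNA transcription genes 6 were higher and 8 lower, with Taf1b (1.12) and Pes1 (-0.87) the largest each way. Of 21 listed non-coding hosts 8 were measured and 6 rose, with Rian (2.16) the largest.

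In PomcGFP against the Tbr2 lines Fbl fell by 0.61 (adjusted p = 0.0447 in limma), as did Znhit6 (-0.53), Taf1d (-0.51) and Snhg5 (-0.50), whereas Rian rose by 1.20. Against NesGFP, Nop58 rose by 1.37 in PomcGFP and Nhp2 fell by 1.26. Between the Tbr2 lines only Rian (-1.24) and Taf1d (0.52) passed in these lists, and Taf1d not without the filter (adjusted p = 0.0509 in limma).

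The filter set aside 4 members: Snora16a, Snora2b, Snord58b and Snord118. Snora16a and Snord118 lay above the 25th percentile on 1 array each, and Snora2b and Snord58b on none. Snora16a read 5.54, 6.19 and 5.48 in NesGFP and 5.43 to 5.93 in kiTbr2GFP. Snord118 (U8) read 6.16, 4.93 and 4.68 in NesGFP and 4.43 to 4.80 in kiTbr2GFP. The members just inside, Snord37 and Snord42b, lay above the percentile on 2 arrays each, both NesGFP arrays. Snord37, in the elongation factor gene Eef2, read 6.06, 7.10 and 4.08 in NesGFP, and Snord42b, in Rpl23a, read 5.66, 6.23 and 6.46. They were admitted through the group in which they were high, and neither passed in the Tbr2 lines together against NesGFP. With kiTbr2GFP alone against NesGFP Snord37 passed (-1.60, adjusted p = 0.0495 in limma), with overlapping arrays and not without the filter (adjusted p = 0.0570). No snoRNA gene of the imprinted Snord115 and Snord116 clusters had a probe set with a single symbol.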

How the data were processed

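The deposited values are log2 intensities, 1 per probe set and array, made by the authors with RMA (oligo, version not given), per the submitters' processing notes; that RMA values are log2 was checked against their range. Of 28858 probe sets 21789 had 1 symbol, 1621 several and 5448 none; 41 naming a snoRNA with other symbols were left out. All genes were fitted with limma 3.58.1 in R 4.3.3 as a cell-means model of the 4 lines on 11 arrays (7 residual and 4.22 prior degrees of freedom). Tests were two-sided, with Benjamini-Hochberg adjustment over all genes tested. The fit was tested on simulated data. Named members were the 6 largest differences each way per comparison, the 3 highest and 3 lowest means, and listed hosts and proteins; others were chosen after their values were seen. The members and lists were chosen with earlier results of these data known. Hosts were genes containing the snoRNA gene, the shortest where several did, without regard to strand, which the table does not give. Alternatives were other scaling, filters, weights, a replicate block and leaving out arrays. The number of arrays limits precision. Some host genes are not reported here.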

Additional observations from a re-analysis of the deposited data

How the results depend on the processing

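The counts of snoRNA genes past limma's test held to within 1.5 times for the 4 lines together and for the Tbr2 lines against NesGFP; leaving out 1 array gave 19 to 22 and 21 to 30. For PomcGFP against the Tbr2 lines the count of 4 became 2 with cyclic loess, 7 with array weights, 2 with kiTbr2GFP alone as the partner and 1 to 3 with 1 array left out (1 without either PomcGFP array). PomcGFP against NesGFP went from 17 to 10 with the compared groups alone and 9 to 24 with 1 array left out. For kiTbr2GFP against tgTbr2GFP the 0 became 6 with array weights and 1 with the compared groups alone, and stayed 0 with 1 array left out. With the replicate number as a block the counts were 20, 21, 2, 17 and 0, in the order 4 lines, Tbr2 lines against NesGFP, PomcGFP against the Tbr2 lines, PomcGFP against NesGFP and between Tbr2 lines. The labels do not say what the replicate number marks. Same-number correlations of deviations ran from -0.11 to 0.26, so not every pair correlated, although the number 3 arrays of kiTbr2GFP, NesGFP and tgTbr2GFP did (0.154, 0.262 and 0.134), and 6 of 11 arrays correlated best with an array of their own number; the numbers were not taken to pair the arrays. No direction reversed. Counts under these settings, here and above, are mostly given without the share of all genes. Where it is missing, a shift common to all genes and a shift of the snoRNA genes cannot be told apart. The causes were not tested.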

Other observations

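Probe sets that name a snoRNA together with another symbol were left out above. The first 4 below were picked after their values were seen, because NesGFP lay high or low, and none was tested. The probe set of Snord32a and Rpl13a read 10.59 to 10.90 in NesGFP, 7.65 to 8.42 in kiTbr2GFP, 8.18 to 8.58 in tgTbr2GFP and 7.81 to 8.81 in PomcGFP, so NesGFP lay above all other arrays. Snord34 with Rpl13a read 8.10 to 8.62 in NesGFP, 6.54 to 7.20 in kiTbr2GFP, 5.58 to 8.19 in tgTbr2GFP and 7.07 to 7.20 in PomcGFP. Snora43 with Snhg7 went the other way, 6.96 to 7.39 in NesGFP against 7.97 to 8.25 elsewhere. Snora28 with Eif5 read 4.56 to 5.97 in NesGFP and 6.10 to 7.05 elsewhere. The other probe sets of this kind name Snora34, Snora19, Snora36b, Snora65, Snora24, Snord14a, Snord14c and Snord14d, Snord1b and Snord1c, Snord68 or Snord7. Their NesGFP ranges each overlapped with that of some other line, though not always of every line. For Snord14a with Rps13, NesGFP (7.61 to 8.18) overlapped only with kiTbr2GFP (7.53 to 8.03). Snora65 with Rpl12, for example, read 6.59 to 8.03 in NesGFP and 7.29 to 7.66 elsewhere, and Snora24 with Snhg8 read 8.07 to 9.56 in NesGFP and 7.39 to 8.58 elsewhere.

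The imprinted cluster gene Snord116 is covered by 24 probe sets, with 7 distinct sets of values. Each names the copies Snord116l1 and Snord116l2 together with another gene, Gm26504, and their parts cannot be told apart. Over them the arrays read 9.57 to 10.61 in kiTbr2GFP, 9.98 to 10.63 in tgTbr2GFP, 9.09 to 10.27 in NesGFP and 10.65 to 10.94 in PomcGFP. The PomcGFP arrays were the highest, without a test.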
